A study of Homo sapiens with 4 samples.

Results

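Epithelial cells hold together through tight junctions, which seal the space between neighbours, and desmosomes, which anchor the keratin filaments of one cell to those of the next. Polarity proteins and apical trafficking proteins set apart the upper and lower faces of the cell, surface proteases with their inhibitors act on the same membranes, and a small set of transcription and splicing factors keeps the epithelial programme running. Loss of these genes is a usual mark of epithelial-mesenchymal transition (EMT), in which carcinoma cells give up contact with their neighbours and become motile. A list of 41 such genes was followed here in a highly migratory and an immotile subpopulation of a colon cancer cell line, and its members were found on the arrays by the RefSeq accession of each probe. All 41 had a matched probe, 52 probes in all, and 40 of them were well above background on all 4 arrays, out of 15707 genes or unnamed transcripts measured that way. The exception was CLDN1, a barrier claudin, whose only probe stayed within background on every array. Second probes of CLDN12 and GRHL2 were also on no array, and a second probe of GRHL1 was well above background only in non-MG cells with 5-azacytidine, which left 48 probes.

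HCT116 is a human colorectal carcinoma line. Its MG cells had been enriched by repeated passage through a transwell membrane towards serum, and its non-MG cells were those that had stayed on the upper side. Each subpopulation was treated for 48 h with vehicle, named control in the labels, or with 5 µM 5-azacytidine, which inhibits DNA methyltransferases, and 400 ng of total RNA was labelled for each one-colour Agilent array. There was 1 array per condition, so there is no spread between replicates, and no test between conditions was made. Both are subpopulations of 1 line from 1 selection procedure, and they stand for that selection only. The DNA methylation of these cells was not analysed here.

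A level is given below as the log2 of the background-corrected intensity minus the 75th percentile of its array, on the log2 scale. Levels are listed in a fixed order: non-MG cells with vehicle, non-MG cells with 5-azacytidine, MG cells with vehicle and MG cells with 5-azacytidine. They compare one gene between arrays and do not rank genes against each other. A gene with several measured probes has the mean of their values. It was counted as higher or lower past 1.5-fold, which is a log2 ratio of 0.58. The ± after a log2 ratio is its spot error, from the SD between spots of probes that were printed 10 times on every array. It covers printing and scanning only, and so it is a lower limit of the error.

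Between 21382 and 21881 of 50594 probes were well above background on an array, and no spot was saturated. All arrays lay on 1 slide, with non-MG cells along row 1 and MG cells along row 2, and with column 3 for vehicle and column 4 for 5-azacytidine, so that the place on the slide and the condition cannot be told apart. The epithelial identity of the RNA was checked with 8 colorectal epithelium markers, of which 6 were well above background on all arrays (CDH1, CDX2, EPCAM, KRT8, KRT18 and KRT19) and 2, VIL1 and CDH17, on none. Of 8 fibroblast markers 6 were on none, including COL1A2, COL3A1, DCN and PDGFRB, and the leukocyte marker PTPRC and the endothelial marker PECAM1 were on none either. Detected on all arrays were COL1A1 of the fibroblast list, CD14, CD68 and CD79A of 6 leukocyte markers, and VWF of 5 endothelial markers. Some of these differed past 1.5-fold. With vehicle, COL1A1 was 1.89-fold and CDH1 1.58-fold lower in MG cells. With 5-azacytidine CDH1 was 1.41-fold lower, within the threshold, and median centring would bring its ratio with vehicle inside the threshold too. The authors reported CDH1 mRNA as unchanged in the MG cells, on the arrays and by qPCR. After the drug, CD14 was 1.83-fold higher in non-MG and 2.003-fold higher in MG cells, and CD68 and VWF were 1.77-fold and 1.63-fold higher in MG cells. The fibroblast marker THY1 was well above background only with 5-azacytidine, in both cell types. The leukocyte marker LAPTM5 was so only in MG cells with 5-azacytidine. Against the dimmest detected signal of the vehicle array, each was at least 1.5-fold higher after the drug where it was detected. The part of these markers in the results was not tested. If arrays were centred on their medians rather than their 75th percentiles, every MG over non-MG log2 ratio would gain 0.20 with vehicle and 0.26 with 5-azacytidine, and every ratio of 5-azacytidine over vehicle would lose 0.10 in non-MG and 0.04 in MG cells. Medians of gene groups are therefore given beside the median of all genes, which shifts by the same amount.

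5-azacytidine acts on the methylation of cytosines that precede a guanine (CpG), and promoters differ widely in how many they hold. RefSeq promoter windows of GRCh38.p14, each 250 bases before and 50 bases after a transcription start, were matched by symbol to 23 of the 41 genes, with 34 windows in all. The 250 bases before the start are printed for genes that were lower in the MG cells both with vehicle and with 5-azacytidine and have a single window, since they show how far co-lowered promoters differ in CpG content. They run 5′ to 3′ towards the start, with every CpG in capitals. The windows are CLDN3 at chr7:73770271-73770520 on the minus strand, CLDN4 at chr7:73830746-73830995, ELF3 at chr1:202010337-202010586 and CGN at chr1:151511137-151511386, the last 3 on the plus strand.
CLDN3: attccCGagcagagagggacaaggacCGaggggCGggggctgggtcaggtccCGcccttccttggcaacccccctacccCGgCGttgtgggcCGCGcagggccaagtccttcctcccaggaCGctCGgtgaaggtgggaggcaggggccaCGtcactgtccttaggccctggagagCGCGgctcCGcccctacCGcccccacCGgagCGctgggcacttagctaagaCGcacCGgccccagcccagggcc
CLDN4: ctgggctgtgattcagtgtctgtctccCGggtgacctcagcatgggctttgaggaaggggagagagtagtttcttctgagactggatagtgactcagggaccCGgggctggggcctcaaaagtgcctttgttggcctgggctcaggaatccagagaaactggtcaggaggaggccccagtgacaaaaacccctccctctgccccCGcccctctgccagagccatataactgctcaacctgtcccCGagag
ELF3: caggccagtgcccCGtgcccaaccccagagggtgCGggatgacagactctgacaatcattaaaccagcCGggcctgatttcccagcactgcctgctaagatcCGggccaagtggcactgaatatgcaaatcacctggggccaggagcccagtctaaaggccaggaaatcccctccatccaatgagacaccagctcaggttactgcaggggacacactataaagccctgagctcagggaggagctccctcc
CGN: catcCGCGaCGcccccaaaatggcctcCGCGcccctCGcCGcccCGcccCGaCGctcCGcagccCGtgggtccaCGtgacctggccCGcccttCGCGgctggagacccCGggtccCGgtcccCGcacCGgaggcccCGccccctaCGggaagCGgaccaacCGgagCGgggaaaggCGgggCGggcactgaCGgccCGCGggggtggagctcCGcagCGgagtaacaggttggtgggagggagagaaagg

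These stretches held 19 CpGs for CLDN3, 4 for CLDN4, 4 for ELF3 and 32 for CGN. The neighbouring claudins CLDN3 and CLDN4 thus differ in this respect. Over the whole windows, the 34 epithelial windows had a median of 23.5 CpGs, with a range of 1 to 52, beside 25 for the windows of all genes measured on the 4 arrays. The E-box CACCTG, read as CAGGTG on the other strand, is the motif to which EMT repressors such as ZEB1 and SNAIL bind. It was found in 14 of the 34 windows (41.2%), compared with 20.6% of all 35116 windows and 19.2% of the 14572 windows of measured genes. By gene, 13 of 23 (56.5%) had it, compared with 24.1% of all genes and 24.5% of measured genes. Among the printed stretches only that of ELF3 holds it, 120 bases before the start, and the window of CLDN3 holds 1 after its start. CLDN7 and CRB3 had the most, with 5 in a window each. A match describes the letters of the window and says nothing of binding in these cells.

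With vehicle, 10 of the 40 measured epithelial genes were lower past 1.5-fold in MG than in non-MG cells (25%), compared with 8.24% of all genes, and only OVOL2 was higher (2.5%, compared with 5.68%). The lower genes were CLDN3, CLDN4, TJP3, CGN and LSR of the tight junction, JUP of the desmosome, the polarity gene PARD6B, the membrane protease PRSS8, the protease inhibitor SPINT1 and the transcription factor ELF3. With median centring the counts were 5 lower and 3 higher, compared with 3.83% and 13.5% of all genes. After 5-azacytidine, 7 of the 40 had lower levels in MG cells (17.5%), compared with 7.33% of all genes, and 3 were higher, namely KRT7, OVOL2 and EHF (7.5%, compared with 5.74%). These comparisons share no array. Lower in both were CLDN3, CLDN4, TJP3, CGN, PARD6B and ELF3, which are 15% of the 40 genes, compared with 3.81% of all genes. With median centring 3 of the 6 (CLDN3, TJP3 and ELF3) stayed lower past 1.5-fold in both. OVOL2 alone was higher in both (2.5%, compared with 2.71%). The median MG over non-MG log2 ratio of the 40 genes was -0.28 with vehicle, beside -0.01 over all genes, and -0.20 after 5-azacytidine, beside 0.02. Whether a lower level reflects less RNA in every cell or fewer cells that express the gene cannot be told apart in bulk RNA.

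**Figure D1:**
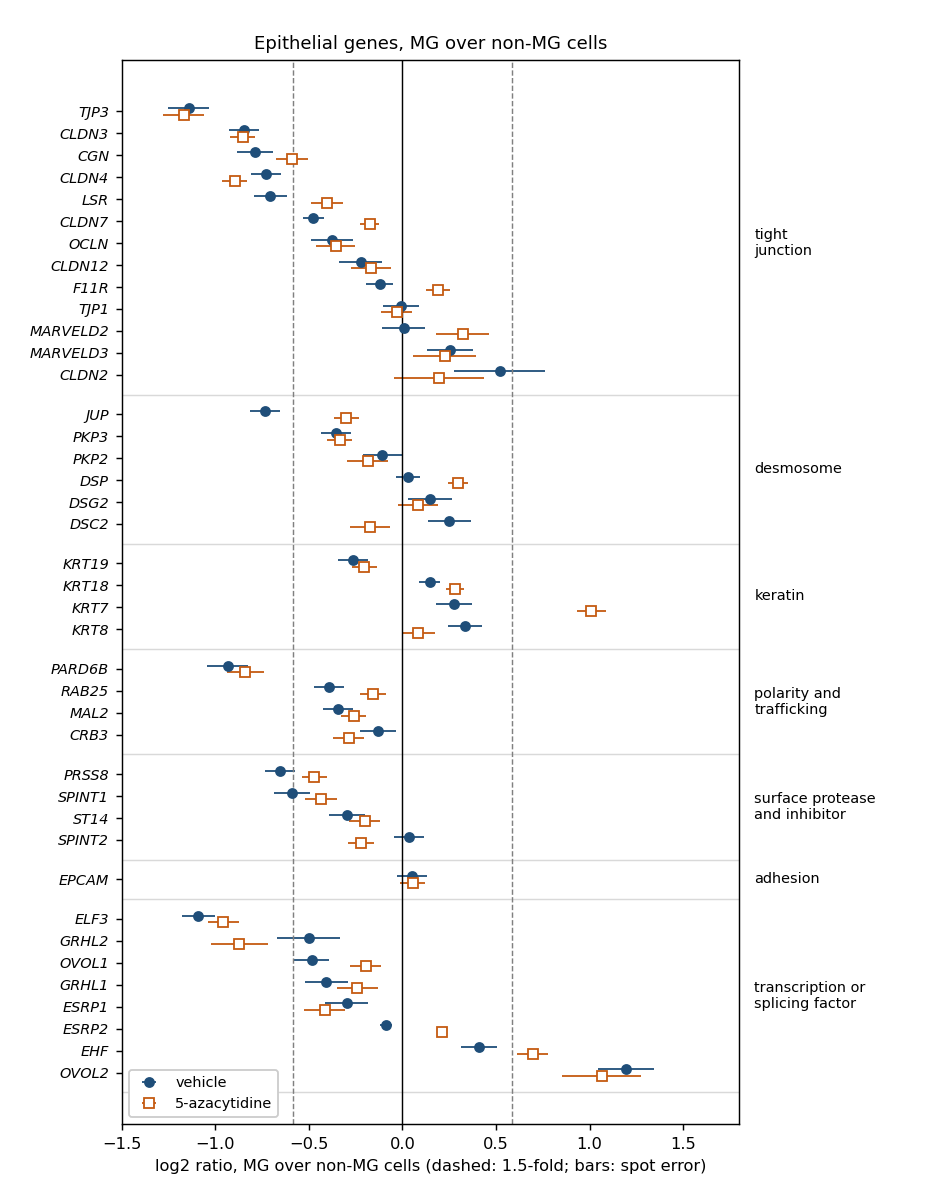
MG over non-MG log2 ratio for each of the 40 measured genes, with vehicle (filled circles) and with 5-azacytidine (open squares), grouped by role. Bars show the spot error and dashed lines 1.5-fold; TJP3, ELF3, PARD6B, CLDN3, CLDN4 and CGN lie left of the lower line in both comparisons, while OVOL2 lies right of the upper line in both.

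**Figure D2:**
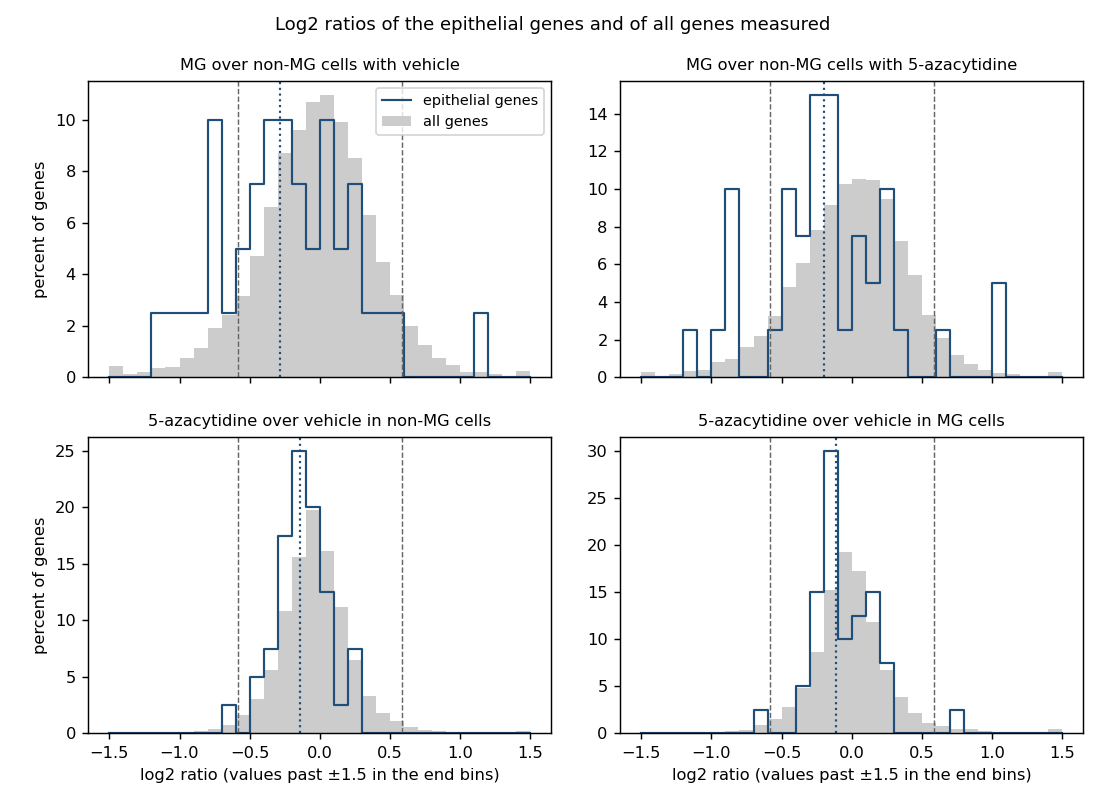
Percent of genes by log2 ratio in each of the 4 comparisons, for the 40 epithelial genes (blue outline) and all 15707 genes or transcripts (grey), with 1.5-fold dashed and the median of the epithelial genes dotted. In both comparisons of cell types the median of the epithelial genes (-0.28 and -0.20) lies left of that of all genes, whose tails reach further on both sides.

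Tight junction genes, the largest role group, had 5 of 13 lower past 1.5-fold with vehicle and 4 of 13 after 5-azacytidine, compared with 8.24% and 7.33% of all genes. Of 11 other tight junction genes, from the wider pathway described below, 1 was lower with vehicle and 0 with 5-azacytidine. The median of the 13 genes is set beside that of all genes next. Their median log2 ratio lay 0.37 below that of all genes with vehicle (-0.38 against -0.01), and 0.19 below it with 5-azacytidine (-0.18 against 0.02). TJP3, a scaffold that ties claudins to the cell cortex, had levels of 1.60, 0.98, 0.46 and -0.19. It was the gene with the lowest ratio of the list in both comparisons, with MG over non-MG log2 ratios of -1.14 ± 0.11 with vehicle and -1.17 ± 0.11 with 5-azacytidine. Its level was highest in non-MG cells with vehicle and lowest in MG cells with 5-azacytidine, and it was also lower past 1.5-fold after the drug in either cell type.

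CLDN3 and CLDN4 are claudins that tighten the barrier, and they lie next to each other on chromosome 7 with no protein-coding gene between them. CLDN3 had levels of 4.68, 4.56, 3.83 and 3.70, and its MG over non-MG log2 ratio was -0.85 ± 0.08 with vehicle and -0.85 ± 0.07 with 5-azacytidine. Both arrays of MG cells were thus below both arrays of non-MG cells, by nearly the same amount under each treatment. CLDN4, the tight junction probe with the highest intensity, had levels of 7.87, 7.67, 7.14 and 6.78 and log2 ratios of -0.73 ± 0.08 and -0.90 ± 0.07. It followed the same order of arrays as CLDN3, though median centring brought its ratio with vehicle to -0.53, inside the threshold. Of 8 protein-coding genes around the pair, 4 on each side, 7 were measured (ELN was not) and all 7 stayed within 1.5-fold in all 4 comparisons. The nearest to the threshold were STX1A and METTL27, both at -0.51 with vehicle. METTL27, next to CLDN4, had -0.23 with 5-azacytidine, while ABHD11, next to CLDN3, had -0.0044 with vehicle and -0.05 with 5-azacytidine.

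**Figure D3:**
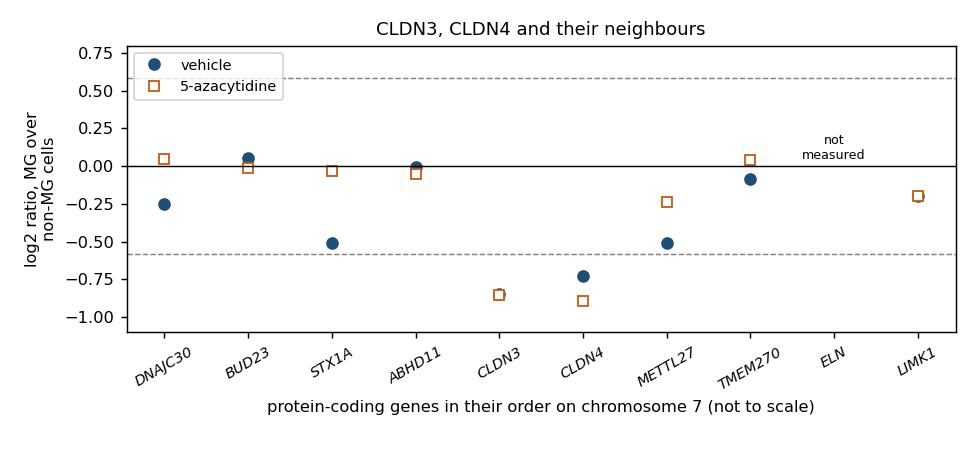
MG over non-MG log2 ratio for CLDN3, CLDN4 and the protein-coding genes on either side, in their order on chromosome 7, with vehicle (circles) and 5-azacytidine (squares) and 1.5-fold dashed. CLDN3 and CLDN4, at -0.73 to -0.90, are the only genes below the dashed line.

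CGN encodes cingulin, which couples tight junctions to the actomyosin cytoskeleton, and had levels of 3.38, 3.25, 2.59 and 2.66. Its log2 ratio was -0.79 ± 0.10 with vehicle and -0.59 ± 0.08 with 5-azacytidine, the second just past the threshold. LSR, a receptor that marks the corners where 3 cells meet, had levels of 3.60, 3.41, 2.89 and 3.004 and log2 ratios of -0.71 ± 0.09 and -0.40 ± 0.08, so that it passed 1.5-fold with vehicle only. For both genes the non-MG arrays were the higher ones under either treatment. The call of LSR with vehicle and that of CGN with 5-azacytidine were lost with median centring and with normexp background correction.

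The other 8 measured tight junction genes stayed within 1.5-fold in every comparison. TJP1, the general scaffold of the junction, was nearly level across the arrays, with log2 ratios of -0.01 ± 0.10 and -0.03 ± 0.08. CLDN7 had -0.48 ± 0.06 with vehicle and -0.18 ± 0.05 with 5-azacytidine, and OCLN, occludin, had -0.38 ± 0.11 and -0.36 ± 0.10. CLDN2, a claudin that opens a cation pore rather than sealing the junction, had the highest ratio of the group with vehicle, 0.52 ± 0.24, on a dim probe. OCLN and its direct neighbour on chromosome 5, MARVELD2 (tricellulin), differed in their ratios, with MARVELD2 at 0.01 ± 0.12 and 0.32 ± 0.14. Probes of one gene also differed: the pair for MARVELD3 gave -0.09 and 0.60 with vehicle, and the pair for F11R, a junctional adhesion molecule, gave -0.20 and 0.58 with 5-azacytidine. The pair for OCLN gave -0.60 and -0.12 with 5-azacytidine, so that 1 of its probes was past 1.5-fold.

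Among desmosome genes, JUP was the only one of 6 past 1.5-fold, and it was so with vehicle only. JUP encodes plakoglobin, which links desmosomal cadherins to desmoplakin and also sits in adherens junctions. It had levels of 5.30, 4.91, 4.57 and 4.61, and log2 ratios of -0.73 ± 0.08 with vehicle and -0.30 ± 0.07 with 5-azacytidine. Non-MG cells with vehicle were highest and the MG arrays were the lowest, with the ratio 0.43 ± 0.10 nearer to 0 after the drug. This difference between treatments could not be tested with 1 array each, and the call was lost with median centring.

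PKP3, a plakophilin and the desmosome probe with the highest intensity, had levels of 5.93, 5.77, 5.58 and 5.44, which gave -0.35 ± 0.08 and -0.34 ± 0.07. DSP, the desmoplakin that grips keratin filaments, had 0.03 ± 0.06 and 0.30 ± 0.05, the latter from 2 probes at 0.12 and 0.47. The desmosomal cadherins DSG2 and DSC2 had 0.15 ± 0.12 and 0.25 ± 0.12 with vehicle, and DSC2 stood at -0.17 ± 0.11 with 5-azacytidine. The median of the 6 genes, -0.04 with vehicle, differed from that of all genes by 0.03 and changed sides under some of the other settings. With 5-azacytidine the median was -0.18, beside 0.02 over all genes. Relative to all genes it stood at -0.20 there, and at -0.20 to -0.095 over the settings.

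The keratin median lay on the other side of that of all genes. The median log2 ratio of KRT7, KRT8, KRT18 and KRT19 was 0.21 with vehicle and 0.18 with 5-azacytidine, above that of all genes under every setting tried, although none of the 4 passed 1.5-fold with vehicle and KRT19 was below 0 in both comparisons. KRT7, a keratin of ducts and glands that the normal colon largely lacks, had levels of 2.69, 2.68, 2.96 and 3.69. The array of MG cells with 5-azacytidine stood above the other 3. KRT7 was thus 0.28 ± 0.10 on the log2 scale with vehicle and 1.01 ± 0.08 with 5-azacytidine, a 2.01-fold difference between the cell types, and these ratios differed by 0.73 ± 0.12 without a test.

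KRT19, which has the keratin probe with the highest intensity, had levels of 9.51, 9.48, 9.25 and 9.28, with log2 ratios of -0.26 ± 0.08 and -0.20 ± 0.07. KRT8 and KRT18 form the filament pair of simple epithelia and are adjacent on chromosome 12. KRT18 had 0.14 ± 0.06 and 0.28 ± 0.05, and KRT8 had 0.33 ± 0.09 and 0.09 ± 0.09. The 3 probes of KRT8 ranged from 0.03 to 0.81 with vehicle, and the 2 probes of KRT18 gave 0.05 and 0.51 with 5-azacytidine. These means thus rest on probes that differed by more than the spot error.

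Of the 4 polarity and trafficking genes, PARD6B was lower past 1.5-fold under both treatments. PARD6B is a subunit of the PAR complex, which with atypical protein kinase C marks the apical side and the junction belt. Its levels were 1.87, 1.82, 0.93 and 0.98, and its MG over non-MG log2 ratios were -0.93 ± 0.11 with vehicle and -0.84 ± 0.10 with 5-azacytidine. The levels formed a higher pair, the non-MG arrays, and a lower pair, the MG arrays, with almost no difference between vehicle and drug inside each pair. The call with 5-azacytidine was lost with median centring and with normexp correction.

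MAL2, which serves transcytosis to the apical face and had the highest intensity of this group, had levels of 5.72, 5.43, 5.37 and 5.17 and log2 ratios of -0.34 ± 0.08 and -0.26 ± 0.07. RAB25, a GTPase of apical recycling endosomes, had -0.39 ± 0.08 and -0.16 ± 0.07. CRB3, the epithelial Crumbs protein, had -0.13 ± 0.10 and -0.29 ± 0.08. The group median lay below that of all genes in both comparisons, by 0.35 with vehicle and by 0.29 with 5-azacytidine.

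The membrane proteases ST14 (matriptase) and PRSS8 (prostasin) activate each other at the epithelial surface, and SPINT1 and SPINT2 are their Kunitz-type inhibitors. PRSS8 had levels of 6.07, 5.78, 5.41 and 5.31, with log2 ratios of -0.66 ± 0.08 with vehicle and -0.47 ± 0.07 with 5-azacytidine. SPINT1 had levels of 2.74, 2.45, 2.15 and 2.01 and log2 ratios of -0.59 ± 0.10 and -0.44 ± 0.08. Protease and inhibitor thus kept the same order of arrays, with non-MG cells with vehicle on top and MG cells with 5-azacytidine at the bottom, and each passed 1.5-fold with vehicle only. Median centring ended both calls, and that of SPINT1, which lay at the threshold itself, was also lost with normexp correction and in the values of the authors.

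SPINT2, with the highest intensity of this group, had levels of 7.26, 7.22, 7.29 and 7.001 and log2 ratios of 0.03 ± 0.08 and -0.22 ± 0.07. ST14 had -0.30 ± 0.10 and -0.20 ± 0.08. EPCAM, the epithelial cell adhesion molecule by which carcinoma cells are often captured, had levels of 6.60, 6.37, 6.65 and 6.43. Its log2 ratios of 0.05 ± 0.08 and 0.05 ± 0.07 were smaller than the spot error.

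Of the 8 transcription and splicing factors, ELF3 was lower and OVOL2 higher in the MG cells under both treatments. ELF3, an epithelium-specific ETS factor and the probe with the highest intensity here in non-MG cells, had levels of 3.94, 3.56, 2.85 and 2.61. It was 2.13-fold lower in the MG cells with vehicle (log2 ratio -1.09 ± 0.09) and 1.94-fold lower with 5-azacytidine (-0.96 ± 0.08). Both MG arrays lay below both non-MG arrays. EHF, an ETS factor closely related to ELF3, went the other way, with levels of 2.58, 2.15, 2.99 and 2.85 and log2 ratios of 0.41 ± 0.10 and 0.69 ± 0.08. Its MG arrays were the higher ones, and it passed 1.5-fold with 5-azacytidine.

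OVOL2, a zinc-finger repressor that holds back mesenchymal genes, had levels of -1.40, -1.31, -0.21 and -0.25. It was 2.29-fold higher in MG cells with vehicle (log2 ratio 1.19 ± 0.15) and 2.09-fold higher with 5-azacytidine (1.06 ± 0.21). The MG arrays stood clearly above the non-MG arrays, on a dim probe whose ratios were 0.49 and 0.47 with normexp correction and an offset of 50, which ended both calls. Its relative OVOL1 had -0.49 ± 0.10 and -0.20 ± 0.08.

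GRHL2, a grainyhead-like factor that activates genes of epithelial junctions, had levels of -0.20, -0.11, -0.70 and -0.98. It was -0.50 ± 0.17 on the log2 scale with vehicle and -0.87 ± 0.15 with 5-azacytidine, where it passed 1.5-fold, though not with normexp correction. GRHL1 had -0.41 ± 0.12 and -0.24 ± 0.11. The splicing regulators ESRP1 and ESRP2, which set epithelial exon choices, had -0.30 ± 0.12 and -0.09 ± 0.03 with vehicle, and -0.42 ± 0.11 and 0.21 ± 0.03 with 5-azacytidine. ESRP2 had its own repeat spots, 8 to 10 on each array, with SDs of 0.04 to 0.17.

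**Figure D4:**
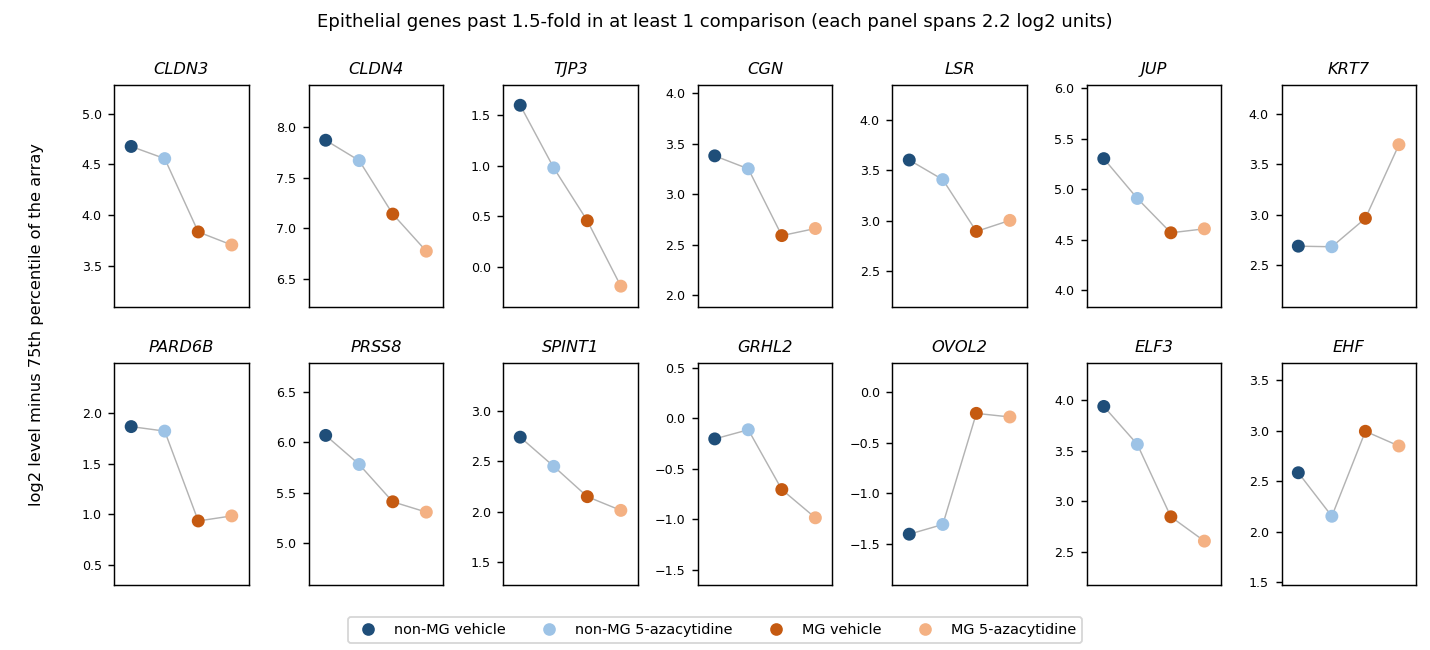
Level (log2 intensity minus the 75th percentile of the array) on each of the 4 arrays for the 14 genes past 1.5-fold in at least 1 comparison, with all panels spanning the same height. CLDN3, CLDN4, TJP3, CGN, PARD6B and ELF3 are lower on both MG arrays than on both non-MG arrays, OVOL2 is higher, and KRT7 stands apart on the array of MG cells with 5-azacytidine.

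5-azacytidine itself moved few genes past 1.5-fold, both among these and among all genes measured. In non-MG cells 1 of 40 was lower, TJP3 (2.5%, compared with 1.68% of all genes), and 0 were higher (compared with 1.9%). In MG cells TJP3 was again the only lower gene (2.5%, compared with 2.1%) and KRT7 the only higher one (2.5%, compared with 3.02%). Past 1.5-fold in both cell types there was TJP3 alone among lower genes (2.5%, compared with 0.312%) and 0 genes among higher ones (compared with 0.815%). None of the listed epithelial genes that were lower in MG cells was higher past 1.5-fold after the drug in these cells. With 3.02% of all genes higher there, a list this short would often hold none. Each drug comparison shares an array with each comparison of the cell types, so their values are set side by side and not related to each other.

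TJP3 had log2 ratios of 5-azacytidine over vehicle of -0.62 ± 0.10 in non-MG cells and -0.65 ± 0.12 in MG cells. Both calls were lost with normexp correction, which brought them to -0.51 and -0.42. KRT7 had -0.01 ± 0.08 in non-MG cells and 0.73 ± 0.09 in MG cells, 1.66-fold higher. Besides TJP3, the genes lower in MG cells in both comparisons had drug ratios there of -0.13 ± 0.08 (CLDN3), -0.37 ± 0.08 (CLDN4), 0.07 ± 0.10 (CGN), 0.05 ± 0.12 (PARD6B) and -0.24 ± 0.10 (ELF3). Those lower in 1 comparison had 0.11 ± 0.10 (LSR), 0.04 ± 0.08 (JUP), -0.10 ± 0.08 (PRSS8), -0.14 ± 0.10 (SPINT1) and -0.28 ± 0.20 (GRHL2). All 10 stayed within 1.5-fold.

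In non-MG cells the widest drug ratios within the threshold were those of F11R at -0.45 ± 0.06, EHF at -0.43 ± 0.08 and JUP at -0.39 ± 0.06 on the lower side, and DSC2 at 0.29 ± 0.10 on the upper side. The value of F11R is the mean of 2 probes at -0.31 and -0.60, the second of which passed 1.5-fold by itself. The medians of the 40 genes were -0.14 in non-MG cells, beside -0.04 over all genes, and -0.11 in MG cells, beside -0.02. Relative to the median of all genes, every role group but the keratins lay below 0 in both cell types. In non-MG and MG cells the proteases and inhibitors had -0.19 and -0.10, and the tight junction genes -0.15 and -0.11. The desmosome genes had -0.05 and -0.08, the polarity genes -0.12 and -0.02, and the transcription and splicing factors -0.07 and -0.07. EPCAM had -0.19 and -0.20, and the keratins had 0.07 and 0.13.

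**Figure D5:**
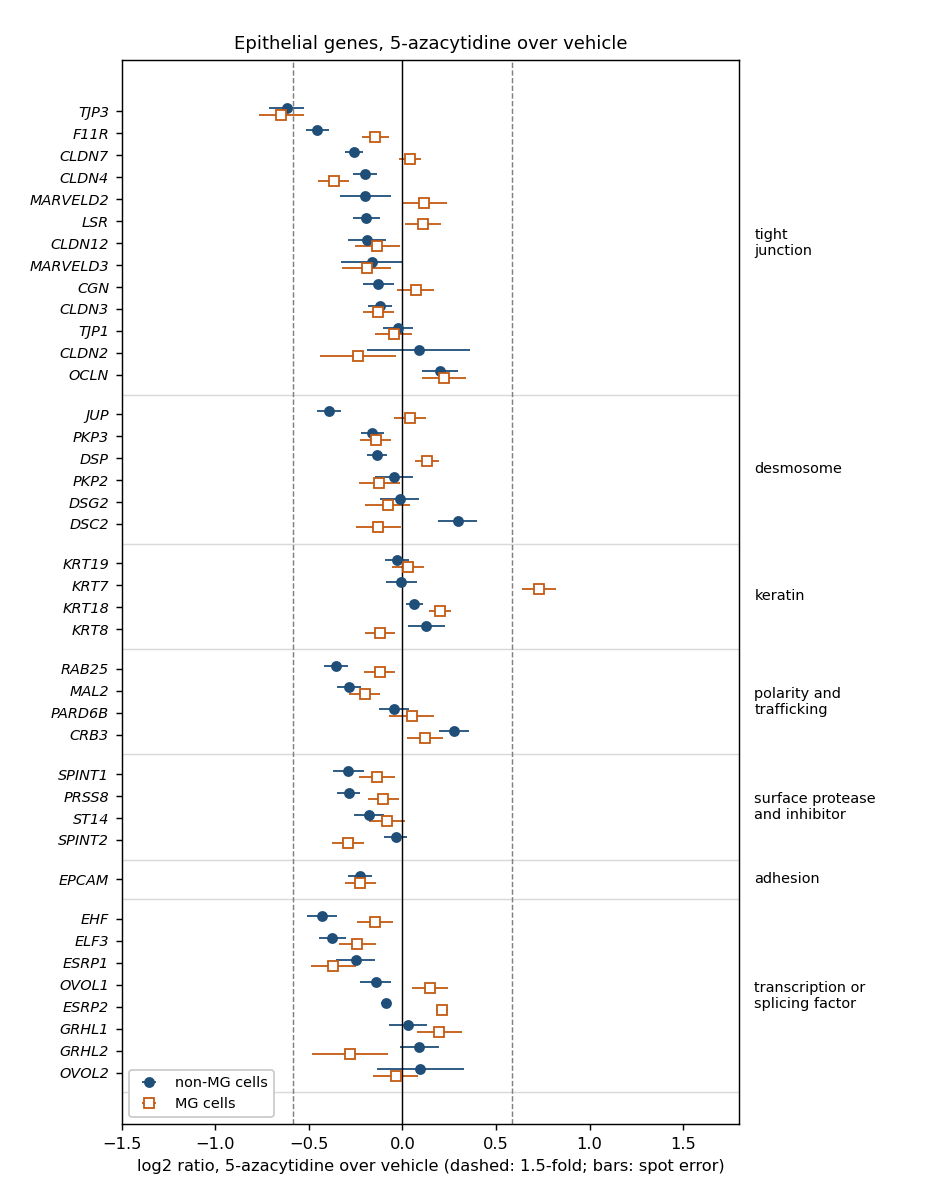
Log2 ratio of 5-azacytidine over vehicle for each of the 40 measured genes, in non-MG cells (filled circles) and MG cells (open squares), grouped by role, with spot error as bars and 1.5-fold dashed. TJP3 lies at or past the lower line in both cell types and KRT7 past the upper line in MG cells, while the others lie between the lines.

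The wider pathway was read from 99 other genes of the same roles, of which 98 had a matched probe and 59 were measured on all 4 arrays. With vehicle, MG cells had 5 lower genes among the 59 (8.47%, compared with 8.24% of all genes) and 4 higher ones (6.78%, compared with 5.68%). With 5-azacytidine 2 were lower (3.39%, compared with 7.33%) and 4 higher (6.78%, compared with 5.74%). Their median log2 ratio was -0.06 with vehicle, beside -0.01 over all genes, and 0.02 with 5-azacytidine, the same as over all genes. Lower genes with vehicle were thus 25% of the 40 genes and 8.47% of the 59, both lists having been drawn up with earlier results of these data known.

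Past 1.5-fold in both comparisons of the cell types were PPL, which was lower (1.69% of the 59, compared with 3.81% of all genes), and KRT80, KRT13 and KLK6, which were higher (5.08%, compared with 2.71%). PPL, periplakin, links desmosomes to intermediate filaments and had levels of 2.02, 1.73, 1.05 and 0.93, with log2 ratios of -0.97 ± 0.11 and -0.81 ± 0.11. The gain of 0.26 from median centring would bring the ratio of PPL with 5-azacytidine inside the threshold. KRT80, a keratin associated with desmosomes, had levels of -0.32, -0.25, 0.86 and 0.91 and log2 ratios of 1.18 ± 0.12 and 1.16 ± 0.14. For either gene the MG arrays lay together and apart from the non-MG arrays. KLK6, a secreted kallikrein protease, had 1.03 ± 0.09 and 1.16 ± 0.08, and KRT13, a keratin of stratified mucosa, had 1.04 ± 0.39 and 0.97 ± 0.36 on a dim probe.

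Higher after 5-azacytidine in both cell types were KRT20 and NECTIN4 (3.39% of the 59, compared with 0.815% of all genes). KRT20, a keratin of differentiated intestinal cells, had levels of -2.57, -1.15, -2.34 and -0.49, with drug ratios of 1.42 ± 0.35 in non-MG cells and 1.85 ± 0.22 in MG cells. NECTIN4, an adhesion molecule of the nectin family, had levels of -1.59, -0.57, -2.34 and -0.66 and drug ratios of 1.02 ± 0.22 and 1.68 ± 0.24. With vehicle NECTIN4 was also lower past 1.5-fold in MG than in non-MG cells (-0.75 ± 0.28), on a dim probe. The gain of 0.20 from median centring would bring that ratio inside the threshold. With 5-azacytidine its MG over non-MG log2 ratio was -0.09 ± 0.18. In each gene both treated arrays were above both vehicle arrays. None of the 59 was lower after the drug in both cell types, compared with 0.312% of all genes.

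Some genes of stratified epithelium had a probe well above background only on part of the arrays, which gives a bound, and they were chosen after their values were seen. A bound sets the bright array against the dimmest detected signal of the dim array, or against the probe's own signal there if brighter. A probe of KRT6B, a keratin of activated epidermis, was well above background on both MG arrays and on neither non-MG array, which makes it at least 2.38-fold higher in MG cells with vehicle and at least 1.90-fold with 5-azacytidine. PKP1, a plakophilin of stratified epithelia, had 1 probe on no array and another well above background only in treated MG cells, the latter at least 5.53-fold above the treated non-MG cells and at least 6.29-fold above the MG cells with vehicle.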

How the data were processed

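Gene expression was measured in 4 RNA samples, grouped by their labels. The authors deposited the Agilent Feature Extraction 11.5.1.1 output of each array as linear intensity values, background-subtracted by the scanner software and not normalized between arrays, and a second table, of processed log2 values for 24189 probes, each centred on its median over the arrays. Per the labels, the RNA was extracted with RNAiso Plus, while the methods name an RNeasy kit. Column medians of the deposited log2 values lay between -0.012 and 0.013. In 24161 compared probes their differences between arrays matched those of the log2 intensities up to 1 constant per array, within 0.01. The constants matched those of scaling to the 75th percentile to within 0.004, so the scale and direction are known. The filter on the lowest 20th percentile and on flags comes from the methods.

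Here control spots and outlier spots were left out (50594 of 50599 probes remained), spots of a probe were averaged, and log2 intensity minus the array's 75th percentile was taken. Accessions, without version, named 30000 probes (59.3%) through RefSeq of GRCh38.p14; the array design uses hg19, so only gene order was taken from that table. Probes well above background on all 4 arrays were averaged per gene. A ratio past 1.5-fold was counted; the threshold is a choice made here. With 1 array per condition no test was made, and the number of arrays limits the precision. Spot error is the median SD between spots of probes printed 10 times, within ranges of intensity, divided by the root of the number of spots. The counting was tested on simulated data.

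The genes, the pathway list and the markers were chosen with earlier results of these data known. Named with values on every array are genes past 1.5-fold in at least 1 comparison and the gene with the highest intensity in each role. Of the other pathway genes, those past 1.5-fold in both comparisons of cell type or of drug and the highest and lowest ratio with vehicle are named. Alternatives were normexp correction (offset 50, on the median spot signal), median centring, quantile normalization, a looser and no filter on dim probes, the brightest probe, the deposited log2 values, and 1.4-fold and 2-fold thresholds. Python 3.11.15, numpy 2.4.6, pandas 2.3.3, matplotlib 3.10.9, R 4.3.3 and limma 3.58.1 were used.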

Additional observations from a re-analysis of the deposited data

How the results depend on the processing

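Of 100 alternative values for the counts and medians of the epithelial genes, 81 stayed within 1.5 times the count or within the spot error of the median, and 19 moved. None of the ratios past 1.5-fold of the named genes reversed. With normexp correction the MG cells with vehicle had 0 higher genes in place of 1 and a median of -0.17 in place of -0.28, beside 0.01 over all genes. Those with 5-azacytidine had 4 lower genes in place of 7 and a median of -0.065 in place of -0.20, beside 0.03. TJP3 no longer passed after the drug, which left 0 lower genes in either cell type. Median centring gave 3 higher and 5 lower genes with vehicle in place of 1 and 10. Its medians were -0.084 with vehicle, beside 0.18 over all genes, and 0.058 with 5-azacytidine, beside 0.27. The drug median in non-MG cells was -0.24 in place of -0.14, beside -0.14 over all genes. Median centring shifts both medians alike, so the gap to all genes was unchanged. At 2-fold there were 2 lower genes with vehicle (TJP3 and ELF3) and 1 lower gene with 5-azacytidine (TJP3). Higher past 2-fold were OVOL2 with vehicle (2.29-fold), and OVOL2 (2.09-fold) and KRT7 (2.01-fold) with 5-azacytidine. After the drug 0 genes passed 2-fold, higher or lower, in either cell type. No share of all genes at 2-fold is set beside these counts. At 1.4-fold, and with the brightest probe of each gene, 2 genes were higher with vehicle. With no filter, 2 genes were higher after the drug in MG cells, the second being CLDN1 on a probe not well above background. The cause of these moves was not tested. Relative to all genes, the medians of the tight junction, polarity, protease and transcription factor groups stayed below 0 and that of the keratins above 0 in both comparisons of cell types under 7 alternatives. That of the desmosome genes ranged from -0.06 to 0.02 with vehicle and from -0.20 to -0.095 with 5-azacytidine. No paired analysis was possible because the labels give no replicate numbers, and with 1 array per condition no replicate could be left out. An additive fit of cell type and drug over the 4 arrays, which would take any difference in drug response between the cell types as error, was not run, and no slide block was fitted with 1 slide and 1 scan. Dim probes limit the precision: the spot SD was 0.29 to 0.42 at log2 intensities below 3 and 0.04 to 0.07 above 10.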
